A study of Homo sapiens with 2 samples.

Results

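The genes for the proteins of the cytosolic ribosome were followed in serotonin neurons (SNs) made from human embryonic stem cells. Their members were all gene symbols written as RPS or RPL and a number, with an optional A, X or L and a paralog number, together with RPSA, RPLP0, RPLP1 and RPLP2. Of the 61487 genes in the count tables, 84 symbols matched and 82 had at least 100 UMIs over both libraries (a UMI, or unique molecular identifier, marks 1 captured transcript). The 2 left out were RPL10L, which had 0 UMIs, and RPL3L, with 2 UMIs in WT and 4 in FKO. The lowest members, RPL39L with 2777 UMIs and RPL17 with 6094, were far above that limit. Pseudogene symbols were not members. The 82 genes comprised 32 of the small (40S) subunit and 50 of the large (60S) subunit and lay on 21 chromosomes.

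The study sorted cells by EGFP at day 42 of SN differentiation and sequenced 1 library of WT and 1 of FOXA2-knockout (FKO) cells. Both lines were WA09 (H9) and carried EGFP knocked into the TPH2 gene, so the sort itself selected cells that express the serotonin-synthesis enzyme TPH2. The FKO line was picked as a clone carrying an indel in FOXA2, a floor plate transcription factor, and no second clone was sequenced here. With 1 library per genotype there are no replicates, cells do not replace them, and genotype, clone, culture, sort and library cannot be told apart. The differentiation used purmorphamine (PUR), a SHH agonist, at several doses, and which dose each sorted culture received is not given in the sources used here, although for some stained cultures of the same day the study paired WT with its lower and FKO with its higher dose. A difference in dose cannot be told apart from genotype either. Since FOXA2 counts went against the labels (below), WT and FKO name the libraries as labelled throughout. No test between the libraries was made, and every interval below is an exact 95% interval that covers counting error only.

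In WT 123064653 UMIs were spread over 11052 barcodes, and in FKO 70588747 UMIs over 8806. Barcodes with at least 1000 UMIs, at least 500 genes, at most 10% mitochondrial UMIs and no doublet mark were kept, which left 5721 barcodes (51.8%) in WT and 6980 (79.3%) in FKO. The median kept barcode held 12442 UMIs in WT and 6925.5 in FKO, and 5 kept barcode sequences occurred in both libraries. FOXA2 had 4.11 counts per 1000000 UMIs (CPM) in WT and 22.3 CPM in FKO, the opposite order of the labels, although an indel can leave the counted 3′ end of the transcript in place. SHH, known as a floor plate signal, had 6.14 CPM in WT and 3.07 CPM in FKO, and CORIN, another floor plate marker, 3.43 and 0.91 CPM. Of the other floor plate markers read, NTN1 was higher in FKO (5.47 CPM in WT, 12.5 CPM in FKO) and SPON1 about equal (28.8 and 28.5 CPM). TPH2 stood at 196.7 CPM in WT and 162.2 CPM in FKO. All 7 serotonergic markers were detected in both libraries, 4 of them higher and 3 lower in FKO. Their summed level was 2717 CPM in WT and 2279 CPM in FKO. FEV was the largest part in each (1583 and 908.5 CPM), followed by GATA3 (594.4 and 817.1 CPM).

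A ribosome is built from ribosomal RNA and a nearly equal number of each ribosomal protein, and cells that grow and divide are known to spend a large part of their mRNA on these proteins. Most of the mRNAs begin with a cytosine followed by a run of pyrimidines, the 5′ terminal oligopyrimidine (TOP) motif, through which mTOR and LARP1 control their translation and stability. Neurons that have left the cell cycle still depend on ribosomes for protein synthesis in the soma and in axons and dendrites.

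Over all kept barcodes the 82 genes took 11.7% of UMIs in WT and 7.35% in FKO. Their levels were far from equal. In WT the levels ran from 16.3 CPM for RPL39L to 3291 CPM for RPL41, a 202-fold range with a median of 1482 CPM. In FKO they ran from 13.4 CPM for RPL39L to 2307 CPM for RPS4X, a 172-fold range with a median of 900.6 CPM. Most genes nevertheless sat close together, since 62 of 82 in WT and 61 of 82 in FKO lay within 2-fold of their library's median. Each UMI is counted at the 3′ end of a transcript, so these levels are not divided by length, but how well each 3′ end is captured and mapped also enters the order between genes.

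RPS4X, RPL10, RPL41 and RPL13 were among the genes with the highest mean level over both libraries. RPS4X, the X-linked gene of small subunit protein eS4, had 2909 CPM in WT and 2307 CPM in FKO. RPL10, an X-linked gene whose protein joins the large subunit late in its maturation, had 2798 CPM in WT and 2238 CPM in FKO. RPL41, which encodes the shortest ribosomal protein, had 3291 CPM in WT and 1658 CPM in FKO. RPL13 had 2801 CPM in WT and 1883 CPM in FKO. In WT, 59 members exceeded 1000 CPM, and in FKO 33 did. The 3 lowest members were RPL39L (16.3 CPM in WT, 13.4 CPM in FKO), RPL17 (39.0 CPM and 22.1 CPM) and RPL22L1 (57.9 CPM and 31.6 CPM). RPL17 shares exons with the readthrough gene RPL17-C18orf32, which held 3.24 CPM in WT and 1.96 CPM in FKO, and reads that fit both genes could not be assigned, so its own level is uncertain. Across the 82 genes the log2 levels of the libraries correlated with Pearson's r = 0.97 and Spearman's rho = 0.93, a description over genes that share library and depth.

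**Figure D1:**
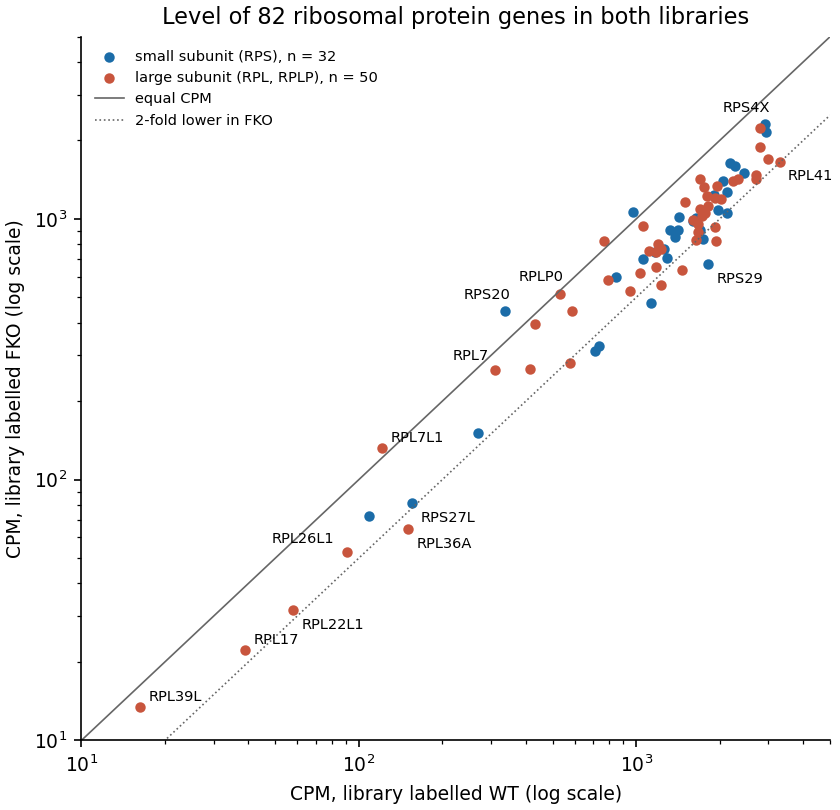
Level of each of the 82 ribosomal protein genes as CPM in WT (x axis) against FKO (y axis), both on log scales, with 1 point per gene. Most points lie between the line of equal levels and the line of 2-fold lower levels in FKO, and RPS20, RPL7L1 and RPL23 are among the points above the line of equal levels.

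The first comparison asks how the sorted FKO cells stand against the sorted WT cells, over all kept barcodes. The summed level of the members was 117275 CPM in WT and 73514.5 CPM in FKO, which is 1.60-fold lower in the library labelled FKO (log2 ratio of FKO over WT -0.67, interval -0.675 to -0.672). The shift was shared by nearly the whole group: 78 of 82 genes were lower in FKO, where 27.5% of the 9669 genes with at least 10 CPM in either library were lower. A level lower by at least 1.5-fold was seen in 53 members against 8.05% of all genes compared, and a level higher by at least 1.5-fold in 0 members against 43.5%. The median member stood at a log2 ratio of -0.70, with a range of -1.43 to 0.40. The median of all genes compared was 0.47. CPM are shares of a library's total, so they do not give amounts per cell. Relative to that median, 77 members were lower by at least 1.5-fold against 23.3% of all genes, 0 were higher by that fold against 17.9%, and 82 of 82 lay below it, where 50% of all genes lie.

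The subunits had like medians. The 32 small subunit genes had a median log2 ratio of -0.70 with 30 lower in FKO, and the 50 large subunit genes a median of -0.70 with 48 lower, beside the 27.5% of all genes. The small subunit took 4.70% of UMIs in WT and 2.98% in FKO, and the large subunit 7.03% and 4.37%. The summed log2 ratios were -0.66 for the small and -0.68 for the large subunit, and the ratio of small to large subunit UMIs was 0.669 in WT and 0.681 in FKO.

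The genes with the lowest ratios were short members of both subunits. RPS29, which encodes a small zinc-binding protein of the 40S head, had 1816 CPM in WT and 671.8 CPM in FKO, a log2 ratio of -1.43 (-1.45 to -1.42). RPS21 had 1128 CPM in WT and 474.7 CPM in FKO, a log2 ratio of -1.25 (-1.27 to -1.23). RPL35 had 1939 CPM in WT and 826.0 CPM in FKO, a log2 ratio of -1.23 (-1.25 to -1.22). Each of these differences was over 2-fold and many times its counting interval. RPL36A, X-linked, had 150.8 CPM in WT and 64.5 CPM in FKO, a log2 ratio of -1.23 (-1.28 to -1.17). RPL38, known from mice for its role in translating Hox mRNAs, had 1462 CPM in WT and 637.8 CPM in FKO, a log2 ratio of -1.20 (-1.21 to -1.18). RPS29 overlaps a pseudogene exon on its strand and RPL36A the readthrough gene RPL36A-HNRNPH2, so the values of both are uncertain. Such an overlap touches 15 members in all, and the 67 members without one had a median log2 ratio of -0.68.

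The other 4 members were higher in the library labelled FKO, RPS20, RPL7L1 and RPL23 among them. RPS20, mutated in some families with colorectal cancer, had 336.2 CPM in WT and 442.2 CPM in FKO, a log2 ratio of 0.40 (0.37 to 0.42). RPL7L1, a paralog of RPL7, had 121.2 CPM in WT and 131.7 CPM in FKO, a log2 ratio of 0.12 (0.08 to 0.16). RPL23, whose protein can bind and inhibit MDM2, had 768.8 CPM in WT and 822.4 CPM in FKO, a log2 ratio of 0.10 (0.08 to 0.11). All 4 still lay below the median ratio of all genes, and no interval reached 0. RPLP0, of the ribosomal stalk, was nearest to equal among the lower members, with 531.3 CPM in WT and 516.8 CPM in FKO and a log2 ratio of -0.04 (-0.06 to -0.02).

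**Figure D2:**
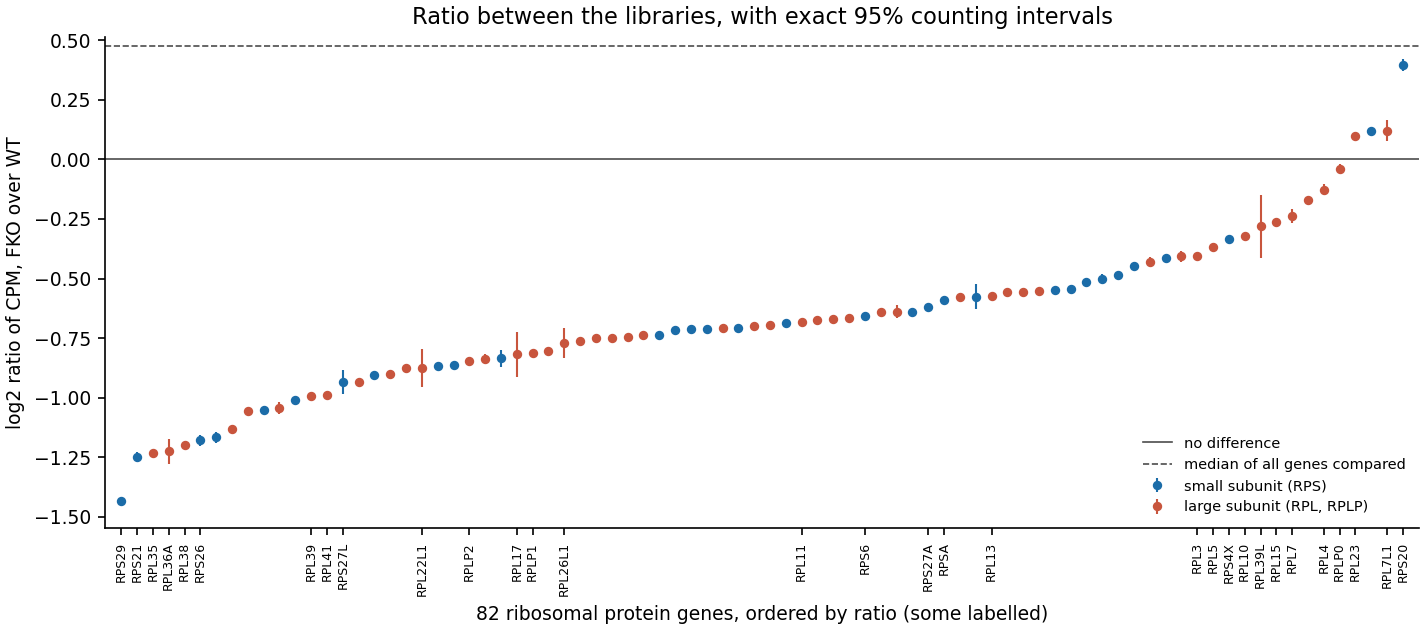
Log2 ratio of CPM in FKO over WT for each of the 82 ribosomal protein genes, ordered by ratio and coloured by subunit, with exact 95% counting intervals as bars. The points rise from -1.43 for RPS29 to 0.40 for RPS20, 78 lie below 0, and each lies below the dashed median of all genes compared at 0.47.

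Groups of members with known roles were lower in FKO as well. The stalk proteins recruit the translation GTPases, and while RPLP0 was nearly equal, RPLP1 went from 2980 CPM in WT to 1697 CPM in FKO (log2 ratio -0.81) and RPLP2 from 1181 to 656.7 CPM (-0.85). RPL5 and RPL11, which with 5S rRNA form the particle that stabilises p53 by binding MDM2, had log2 ratios of -0.37 and -0.68. RPS27A, made as a fusion with ubiquitin, had a log2 ratio of -0.62. RPS6, the substrate of the S6 kinases, had 1173 CPM in WT and 744.3 CPM in FKO (-0.66), and RPSA, which also serves as a laminin receptor, 1060 CPM and 704.7 CPM (-0.59). The 4 X-linked members were all lower in FKO, with log2 ratios of -0.32 for RPL10, -0.33 for RPS4X, -0.99 for RPL39 and -1.23 for RPL36A. A chosen list of 10 members mutated in Diamond-Blackfan anaemia, an inherited failure of red cell production, does not cover all members mutated in that disease. Of these 10 members, 10 were lower in FKO with a median log2 ratio of -0.76. The lowest within the list was RPS26 at -1.18 (707.8 CPM in WT, 312.6 CPM in FKO). These counts stand beside 78 of 82 lower and a median of -0.70 over all members, and 27.5% lower over all genes compared, so they show nothing particular to the groups.

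A set of 5 members are paralogs whose partner gene is also a member, and they were expressed far below their partners. RPS27L, a p53 target, stood at 9.18% of RPS27 in WT and 8.997% in FKO. RPL22L1 stood at 13.9% and 11.8% of RPL22, RPL26L1 at 9.52% and 9.97% of RPL26, and RPL39L, known best from testis, at 0.988% and 1.62% of RPL39. RPL7L1 was the exception at 39.2% and 50.2% of RPL7. Of these 5 paralogs 4 were lower in FKO, beside 78 of 82 members and 27.5% of all genes compared, and without them the remaining 77 members gave the same median to within 0.01, -0.69.

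The lower level in FKO was present in each class of cell that could be set apart. Barcodes with at least 3 of 12 cell cycle genes detected (among them MKI67 and TOP2A) were called cycling, and the rest FEV-positive if they held a UMI of FEV, the Pet-1 transcription factor of serotonergic neurons, or other if they held none. FEV-positive barcodes numbered 5547 in WT and 6284 in FKO, and members took 11.5% and 6.95% of their UMIs (log2 ratio -0.73, interval -0.732 to -0.729). In the 64 cycling barcodes of WT and 103 of FKO the shares were 19.4% and 11.96% (-0.70, interval -0.709 to -0.692). In the 110 other barcodes of WT and 593 of FKO they were 16.4% and 11.1% (-0.56, interval -0.571 to -0.553). The widest exact Clopper-Pearson interval of these shares, that of the other barcodes of WT, ran from 16.35% to 16.51%. Within FEV-positive barcodes 78 of 82 members were lower in FKO against 27.8% of 9585 genes, within cycling barcodes 79 against 28.7% of 10434 genes, and within other barcodes 77 against 30.2% of 10327 genes. A level lower by at least 1.5-fold was seen in 60 members in FEV-positive (8.61% of all genes), 53 in cycling (10.3%) and 38 in other barcodes (9.97%). The classes did not hold the same mix of cells in both libraries. Cycling barcodes had 1127 CPM of pan-neuronal and 467.8 CPM of serotonergic markers in WT against 3418 and 1199 CPM in FKO, and other barcodes had 301.0 CPM of mesenchymal markers in WT against 1508 CPM in FKO, and the part of this in the ratios was not tested. In all 3 classes, 76 members were lower in FKO and 2, RPS20 among them, were higher, counts whose share over all genes was not computed. The other 4, RPL23, RPL4 and RPL7L1 among them, were lower in some classes and higher in others.

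Several measures of the libraries moved with the difference. The mitochondrial share of kept UMIs was 7.64% in WT and 5.32% in FKO, and 40.4% of WT but 13.5% of FKO barcodes lay above the 10% limit. In barcodes not marked as doublets, the members' share was lower in FKO in each of 6 ranges of mitochondrial share, with log2 ratios from -1.03 in barcodes below 5% to -0.32 in those at 7.5 to 10%. It was also lower in FKO in each of 5 ranges of UMIs per kept barcode, with log2 ratios from -0.45 (3000 to 6000 UMIs) to -0.87 (1000 to 3000 UMIs). The ranges do not match depth fully, since the median barcode of the 6000 to 10000 range held 8735 UMIs in WT and 7396 in FKO, and the part of depth was not tested. MALAT1, a nuclear RNA, was at 56750 CPM in WT and 58040 CPM in FKO, and NEAT1 at 28.7 and 163.9 CPM. Mesenchymal markers were higher in FKO for 5 of 5 genes, with a summed 37.3 CPM in WT and 227.7 CPM in FKO, led by COL1A1 (1.94 and 76.3 CPM) and COL1A2 (2.73 and 84.3 CPM), and all 5 were detected in both libraries. Pan-neuronal markers were higher in FKO for 4 of 4, with 5477 and 7144 CPM, and floor plate markers for 2 of 5, with 48.0 and 67.3 CPM (43.9 and 45.0 CPM without FOXA2). The part that these measures have in the result was not tested.

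Among the members the ratio of FKO over WT was higher for longer proteins. Coding length, from GENCODE release 29, ran from 75 bases for RPL41 to 1281 for RPL4, and across the 82 genes the log2 ratio of FKO over WT correlated with it at r = 0.49 and rho = 0.58 (r = 0.53 and rho = 0.60 over the 77 without the paralogs). The points share their libraries and depth, so this is a description without a test. Members shorter than 300 bases, 11 in number, had a median log2 ratio of -0.99. Those of 300 to 450 bases (29 genes) stood at -0.76, of 450 to 600 (19 genes) at -0.69, and of 600 to 900 (20 genes) at -0.55. The 3 longest, RPLP0, RPL3 and RPL4, had -0.04, -0.40 and -0.13. Length did not order all of them, since RPL39L (153 bases) stood at -0.28 beside RPL39 (153 bases) at -0.99, and RPS20 (357 bases) was the highest of all.

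Genes outside the group followed length too, at a higher level. In the same 5 classes of coding length, the medians of the other genes compared were -0.48, -0.35, -0.22, -0.02 and 0.31, and 4173 genes of at least 1500 bases, a class with no member, stood at 0.80. Of the 211 other genes shorter than 300 bases 80.1% were lower in FKO, and of those of at least 1500 bases 5.58%. The median member was thus lower than the median other gene in each class that held members, by amounts that the class medians show, and the middle of the other genes was itself below 0 in the 4 shorter classes. Coding length was found for 82 of 82 members and 94.1% of the genes compared. Within the 82 members the ratio between libraries did not follow their level (r = -0.07, rho = 0.00 against mean CPM). The median over all genes did shift with the minimum level asked. It was 0.75 with at least 1 UMI in each library, 0.47 with at least 10 CPM in either library and 0.31 with at least 50 CPM. Neither the shares of all genes nor the length classes were matched to the members' level, and the part of level was not tested.

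**Figure D3:**
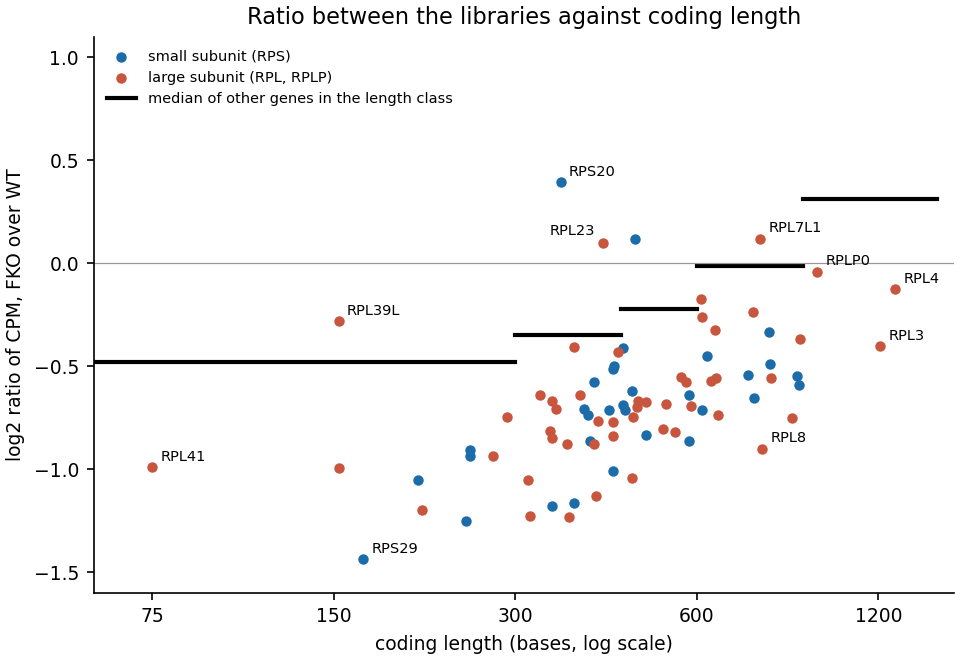
Log2 ratio of CPM in FKO over WT (y axis) against coding length in bases (x axis, log scale) for the 82 ribosomal protein genes, with black bars for the median of all other genes in each length class. Members shorter than 300 bases centre on -0.99 and those of 600 to 900 bases on -0.55, below the bars at -0.48 and -0.02.

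The second comparison sets cycling against FEV-positive barcodes within each library. These classes are defined by detected transcripts and are not a clean split of dividing cells from neurons, as their markers show below. Members were higher in cycling barcodes. In WT their share was 19.4% of UMIs in cycling and 11.5% in FEV-positive barcodes, 1.68-fold (log2 ratio 0.75, interval 0.747 to 0.758). In FKO it was 11.96% and 6.95%, 1.72-fold (0.78, interval 0.776 to 0.789). In WT 81 of 82 members were higher in cycling barcodes against 42.2% of the 9302 genes compared, and in FKO 80 of 82 against 48% of 10690. A level higher by at least 1.5-fold was seen in 56 members in WT, against 22.3% of all genes, and in 61 in FKO, against 21.2%, while 0 members were lower by that fold in either library, against 30.7% of all genes in WT and 17.4% in FKO. The medians of all genes in this contrast were -0.17 in WT and -0.03 in FKO.

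Single cells of the classes differed in the middle of their distributions and overlapped at the edges. The median share per cell was 11.0% in FEV-positive and 19.8% in cycling barcodes of WT, and 6.42% and 12.4% in FKO. Of the cycling barcodes, 62 of 64 in WT and 101 of 103 in FKO lay above the median FEV-positive barcode of their library, and 53 and 76 lay above its 90th percentile. The highest FEV-positive barcodes reached 40.4% in WT and 31.99% in FKO. Cycling barcodes of FKO (median 12.4%) overlapped FEV-positive barcodes of WT (median 11.0%). Cycling barcodes were deeper, with a median of 20832.5 UMIs against 12458 in WT and 12773 against 6977.5 in FKO. With each cell thinned to 2000 UMIs and classes called again, the median share was 11.1% and 19.6% in WT (39 cycling barcodes) and 6.50% and 12.3% in FKO (58 cycling barcodes), leaving out 43 WT and 116 FKO cells that were too shallow. FEV was detected in 56 of 64 cycling barcodes of WT (274.7 CPM against 1625 CPM in FEV-positive barcodes) and in 66 of 103 of FKO (464.6 against 983.8 CPM), and what free RNA or unmarked doublets add to these counts was not tested. Mesenchymal markers were higher in cycling barcodes too, with 304.6 against 29.3 CPM in WT and 877.6 against 120.9 CPM in FKO. Floor plate markers had 274.0 against 39.8 CPM in WT and 300.3 against 47.5 CPM in FKO, and pan-neuronal markers were lower in cycling barcodes, with 1127 against 5579 CPM and 3418 against 7416 CPM. The part these markers have in the cycling share was not tested.

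**Figure D4:**
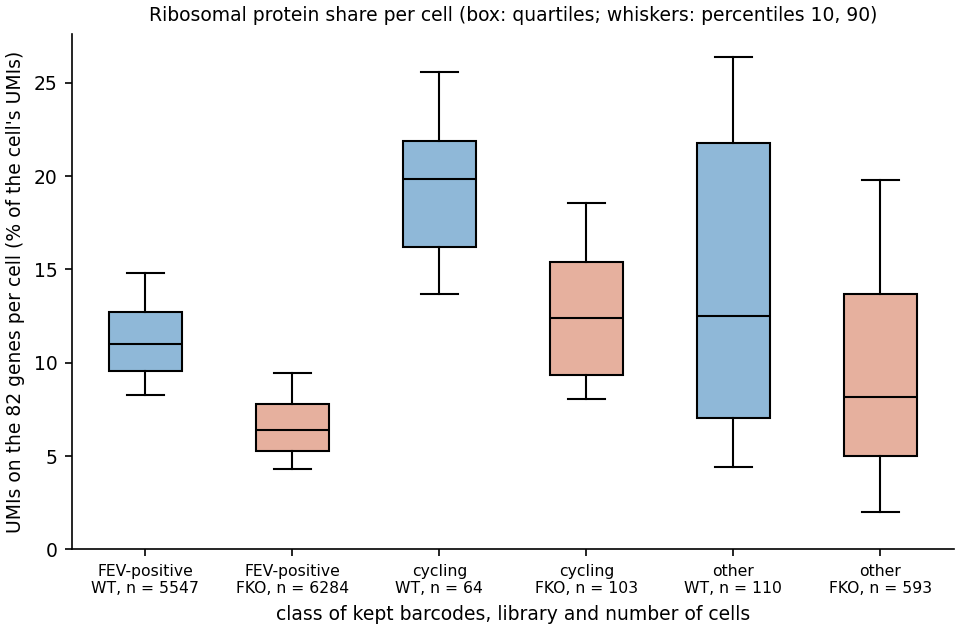
Share of each kept cell's UMIs on the 82 ribosomal protein genes (y axis, percent) by class of barcode and library, with boxes at the quartiles, a line at the median and whiskers at percentiles 10 and 90. Cycling barcodes (medians 19.8% in WT and 12.4% in FKO) stand above FEV-positive ones (11.0% and 6.42%), and each FKO box stands lower than the WT box of the same class.

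The order of the members in this contrast was much alike in both libraries (r = 0.89, rho = 0.87 over 82 genes, which share no cells between libraries but share 3′ chemistry and annotation). RPS27L had 147.0 CPM in FEV-positive and 507.5 CPM in cycling barcodes of WT, and 70.9 and 211.6 CPM in FKO, log2 ratios of 1.79 and 1.58. RPS6 had 1131 and 2931 CPM in WT and 654.3 and 1855 CPM in FKO, log2 ratios of 1.37 and 1.5. RPL22L1 had 56.6 and 122.0 CPM in WT and 28.3 and 93.5 CPM in FKO, log2 ratios of 1.11 (0.87 to 1.34) and 1.72 (1.48 to 1.96). Differences in this ratio between the libraries were not tested. RPL41 had log2 ratios of 1.20 and 1.1, and RPS3, which also acts in DNA repair, 1.11 and 1.19. RPL39L, below the 50 CPM asked of named genes in this order, had 1.96 (1.61 to 2.29) in WT and 1.61 (1.21 to 1.98) in FKO from 80 and 63 UMIs in cycling barcodes.

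At the low end stood paralogs again, with large subunit genes of ordinary level. RPL26L1 had 90.5 CPM in FEV-positive and 77.1 CPM in cycling barcodes of WT, and 53.6 and 47.4 CPM in FKO, with log2 ratios of -0.23 (-0.53 to 0.05) and -0.18 (-0.52 to 0.14). RPL7L1 had log2 ratios of 0.17 (-0.05 to 0.38) in WT and -0.14 (-0.35 to 0.06) in FKO. For both genes a difference between the classes was not detectable at this depth, since every interval spans 0. RPL15 had log2 ratios of 0.21 and 0.29, RPL38 0.25 and 0.30, and RPL24 0.23 and 0.38. The paralogs thus differed among themselves while their partners did not spread as far: relative to its partner, RPS27L went from 8.87% of RPS27 in FEV-positive to 15.998% in cycling barcodes of WT and from 8.43% to 13.9% in FKO, and RPL22L1 from 13.8% to 21.6% of RPL22 and from 11.0% to 24.6%. RPL7L1 instead went from 40.0% to 23.7% of RPL7 and from 54.1% to 25.5%, and RPL26L1 from 9.68% to 5.37% of RPL26 and from 10.6% to 5.90%.

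The small subunit was slightly more prominent in cycling than in FEV-positive barcodes. Its median log2 ratio of cycling over FEV-positive was 0.79 in WT and 0.85 in FKO against 0.67 and 0.71 for the large subunit. The ratio of small to large subunit UMIs was 0.742 in cycling and 0.667 in FEV-positive barcodes of WT, and 0.739 and 0.674 in FKO. Other barcodes lay between these classes, at 0.697 in WT and 0.722 in FKO. The stalk genes had a median of 1.01 in WT and 0.94 in FKO, and the 2 genes of the 5S particle lower ones of 0.55 and 0.60.

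**Figure D5:**
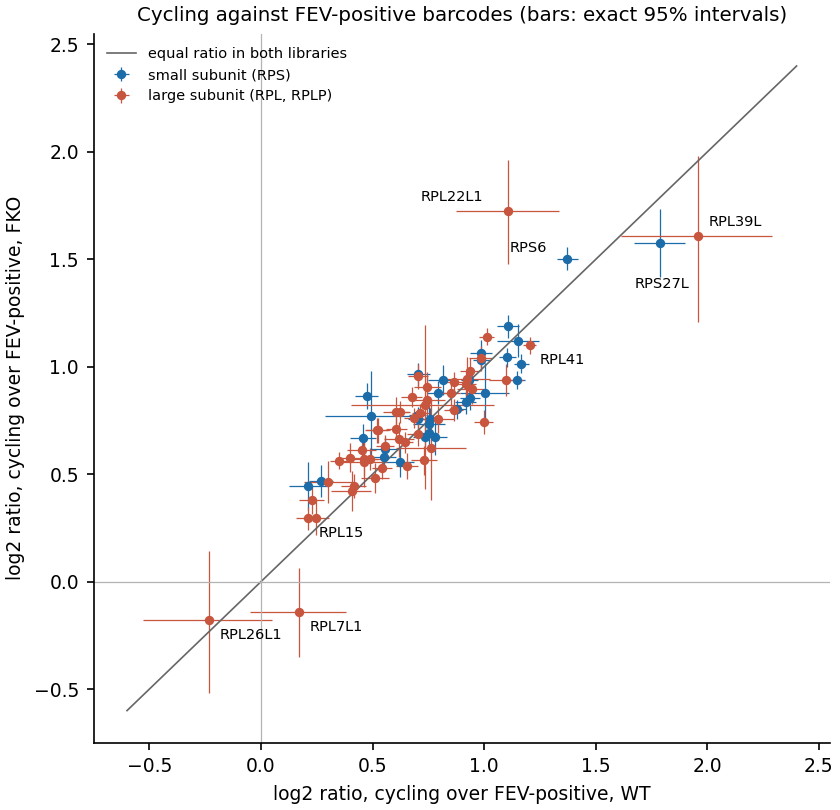
Log2 ratio of cycling over FEV-positive barcodes for each of the 82 ribosomal protein genes in the library labelled WT (x axis) and FKO (y axis), with exact 95% counting intervals. Points follow the line of equal ratios (r = 0.89), with RPL39L, RPS27L, RPS6 and RPL22L1 at the high end and RPL26L1 and RPL7L1 at the low end.

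The letters at the start of the transcripts were read because the TOP motif is what these mRNAs are best known to share. RefSeq promoter windows of 300 bases on GRCh38.p14, 250 before and 50 from a listed start, were found for 66 of 82 members. A C at the start that opened a run of at least 5 C or T letters was present at a listed start of 47 of the 66 (71.2%), against 5.14% of 27305 symbols in the same table. Below are windows of 30 bases, 15 before the start and 15 from it into the first exon, that show the genes with the lowest ratios of FKO over WT together with RPLP0, RPS6 and RPL41. Capitals mark the C or T run that opens at the listed start, and a line without capitals has none there.

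RPS21, chr20:62387088-62387117 (+): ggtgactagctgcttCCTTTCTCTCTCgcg
RPL35, chr9:124861943-124861972 (-): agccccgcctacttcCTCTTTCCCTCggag
RPL36A, chrX:101390996-101391025 (+): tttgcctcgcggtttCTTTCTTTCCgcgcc
RPL38, chr17:74203663-74203692 (+): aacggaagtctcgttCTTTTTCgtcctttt
RPS29, chr14:49598696-49598725 (-): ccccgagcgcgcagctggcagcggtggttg
RPLP0, chr12:120201097-120201126 (-): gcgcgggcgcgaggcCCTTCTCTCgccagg
RPS6, chr9:19380222-19380251 (-): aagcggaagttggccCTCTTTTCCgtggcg
RPL41, chr12:56116618-56116647 (+): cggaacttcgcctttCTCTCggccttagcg

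RPS21 and RPL35, with low ratios, carried runs of 12 and 11 letters, and RPLP0, with nearly equal levels, a run of 9. The 47 members with the run had a median log2 ratio of FKO over WT of -0.69 (range -1.25 to -0.04) and the 19 without it -0.77 (range -1.43 to 0.12), so the groups overlapped over most of their range. In the contrast of cycling over FEV-positive barcodes the medians were 0.75 in WT and 0.79 in FKO with the run, and 0.52 and 0.63 without it. The WT range with the run (0.23 to 1.37) lay inside the WT range without it (-0.23 to 1.79). Both splits are descriptions, and a listed start can differ from the start used in these cells.

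Paralogs are shown because their ratios in the cycling contrast ran from the highest to the lowest, and partners stand beside them where both are in the promoter table. RPL39L and RPL7 are not in it. The windows are cut and marked in the same way.

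RPS27, chr1:153990747-153990776 (+): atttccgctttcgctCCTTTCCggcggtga
RPS27L, chr15:63157463-63157492 (-): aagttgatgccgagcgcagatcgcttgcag
RPL22, chr1:6199581-6199610 (-): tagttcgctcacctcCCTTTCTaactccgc
RPL22L1, chr3:170870181-170870210 (-): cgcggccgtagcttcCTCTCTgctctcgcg
RPL26, chr17:8383179-8383208 (-): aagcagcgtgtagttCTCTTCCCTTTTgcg
RPL26L1, chr5:172958714-172958743 (+): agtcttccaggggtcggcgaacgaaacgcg
RPL7L1, chr6:42879601-42879630 (+): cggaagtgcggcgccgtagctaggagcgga

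RPS27, RPL22 and RPL26 opened with runs of 7, 7 and 12 letters, while of the paralogs shown only RPL22L1 had one, of 6 letters. The run therefore did not sort the paralogs by their ratio in cycling barcodes, since RPS27L was high and RPL26L1 and RPL7L1 low, all without it. Elsewhere in the 300 bases, on either strand, the ETS core CCGGAAGT was found in 11 of 66 members against 4.95% of all symbols, the YY1 core AAGATGGC in 7 against 3.52%, the SP1 box GGGCGG in 38 (57.6%) against 48.3%, and the TATA box TATAAA in 6 against 14%. A match is a description of letters and not a bound site.

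Other parts of the translation apparatus were read beside the members. Ribosome genes that the naming rule passes over were lower in FKO as well, with log2 ratios of -1.06 for FAU, -0.60 for RPL36AL and -0.53 for RACK1. A list of other genes known or held to have TOP mRNAs held mostly translation factors but also NPM1, NAP1L1, HNRNPA1, IMPDH2 and TPT1. It was lower for 9 of 15 genes (27.5% of all genes compared were lower), with a median of -0.03. In this list 11 of 15 lay below the median of all genes at 0.47, and 6 of 15 reached a coding length of 1500 bases. Other genes of at least that length had a median of 0.80. EEF1A1, which delivers aminoacyl-tRNA, had 3103 CPM in WT and 2800 CPM in FKO (-0.15), TPT1 1778 and 1330 CPM (-0.42), EEF2, the translocase, 474.6 and 784.6 CPM (0.73), and EIF4B 78.9 and 153.1 CPM (0.96). In the cycling contrast 13 of these 15 genes were higher in cycling barcodes of each library, where 42.2% of all genes were higher in WT and 48% in FKO.

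Genes of ribosome biogenesis were lower in FKO for 13 of 24 (27.5% of all genes compared were lower), with a median of -0.03. In this list 21 of 24 lay below the median of all genes, and 12 of 24 reached a coding length of 1500 bases. Other genes of at least that length had a median of 0.80. Of the H/ACA particles that modify rRNA, NHP2 (-0.995) and NOP10 (-0.93) were lower and GAR1 (0.11) and DKC1 (0.25) were not. EBNA1BP2 (-1.02) was lower, and POLR1A, the large subunit of RNA polymerase I, was higher (12.7 CPM in WT, 27.6 CPM in FKO, 1.12). In the cycling contrast 10 of 24 were higher in WT, near the 42.2% of all genes, and 17 of 24 in FKO (48% of all genes), with medians of -0.09 and 0.13. Regulators of mTOR signalling and TOP mRNAs were lower for 2 of 12, EIF4EBP1 (-0.78) and RHEB (-0.19), with a median of 0.79. That count is not far from the 27.5% of all genes, 5 of 12 lay below the median of all genes, and the median of other genes with a coding length of at least 1500 bases, which 7 of the 12 reach, was 0.80. Of the shorter genes in this list, EIF4EBP1 had 354 bases (-0.78), RHEB 552 (-0.19), DDIT4 696 (0.02) and RPS6KB2 1446 (0.45). EIF4EBP2, with 360 bases, had 41.8 CPM in WT and 81.8 CPM in FKO (0.97). LARP1, the TOP-binding protein, had 82.6 CPM in WT and 171.0 CPM in FKO (1.05), TSC1 15.8 and 40.1 CPM (1.34), and MTOR itself 18.8 and 35.1 CPM (0.90).

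Ribosomal proteins of the mitochondrion, which serve a separate ribosome, were lower in FKO for 65 of 71 (27.5% of all genes compared), with a median of -0.53 and all 71 below the median of all genes. Of these 71, 0 reached a coding length of 1500 bases. Among other genes below that length, from 30.6% (900 to 1500 bases) to 80.1% (below 300 bases) were lower. In the cycling contrast the medians of the mitochondrial ribosomal proteins were 0.06 in WT and 0.18 in FKO. Those of all genes were -0.17 and -0.03 and those of the cytosolic members 0.72 and 0.77. Higher in cycling barcodes were 42 of 71 in WT, against 42.2% of all genes, and 50 of 71 in FKO, against 48%. Genes of the mitochondrial genome were lower in FKO for 20 of 21, against the same 27.5%, with a median of -0.46. Pseudogenes of ribosomal proteins, 1296 symbols of which 823 had a UMI, summed to 598.2 CPM in WT and 601.7 CPM in FKO, about equal in both libraries while the members stood at 117275 and 73514.5 CPM. Reads that fit a gene and its pseudogene equally well are not assigned to a gene by the counting tool's default, and the level of members with many close copies is uncertain for that reason.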

How the data were processed

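Single-cell RNA-seq (10x Genomics 3′, v3) of TPH2-EGFP-sorted cells gave 1 library labelled WT and 1 labelled FKO. The deposited values are raw UMI counts for each gene in each barcode, which the authors did not normalize. The matrix header names Cell Ranger 7.1.0, the submitters' processing notes 7.0 and GRCh38. The annotation and the counting of introns are not given in the sources used here.

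Counts were read with Python 3.11.15 and scipy 1.17.1. Scrublet in scanpy 1.11.5 scored doublets per library among barcodes with at least 1000 UMIs and 500 genes, and the highest scores were marked at 0.8% per 1000 barcodes, 977 in WT and 620 in FKO. Counts of kept barcodes were summed per library and divided by the library total (CPM). Ratios used no pseudocount, and their intervals were conditional on the summed count. Genes were compared with at least 10 CPM in either group. Intervals and ratios were tested on simulated data. Coding lengths were the median over principal transcripts in GENCODE release 29, matched by Ensembl identifier.

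The members and all lists were chosen with earlier results of these data known. Genes were named by role (stalk, 5S particle, RPS27A, RPS6, RPSA, X-linked, Diamond-Blackfan, paralogs) or by rank: 5 highest and 5 lowest ratios in each contrast with at least 50 CPM in either library, and the 5 highest and 3 lowest levels. RPL4, RPL3, RPS26 and the genes of the other lists were picked with their values in view. Alternatives changed the barcode limits, doublets, depth, scaling, pooling, class rules and the CPM minimum. The limits of the study's own cell filter are not given in the sources used here, and it kept somewhat more WT and far fewer FKO cells than were kept here. The bulk RNA-seq of the study was not analysed here, and some members that the rule would name are not reported by name.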

Additional observations from a re-analysis of the deposited data

Results flagged for a closer look

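RPL7L1 had values of opposite sign in the libraries when cycling were compared with FEV-positive barcodes, with a log2 ratio of 0.17 (-0.05 to 0.38) in WT and -0.14 (-0.35 to 0.06) in FKO, and since both intervals span 0 no direction is established. The same gene had a log2 ratio of FKO over WT of 0.12 (0.07 to 0.17) in FEV-positive and -0.19 (-0.49 to 0.11) in cycling barcodes. RPL23 had log2 ratios of FKO over WT of 0.026 (0.01 to 0.04) in FEV-positive and -0.014 (-0.11 to 0.08) in cycling barcodes, and the cycling intervals of both genes span 0. With 1 library on each side the differences were not tested.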

How the results depend on the processing

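No direction of the members' summed ratios turned under any alternative, and with 1 library per genotype no call could be gained or lost. The log2 ratio of FKO over WT, -0.67 as reported, was -0.61 over all deposited barcodes, -0.67 with doublets kept and with a minimum of 3000 UMIs, -0.65 at a mitochondrial limit of 20% and -1.03 at 5%. It was -0.73 in FEV-positive barcodes alone, -0.69 after thinning, -0.70 as a mean share per cell, -0.71 without mitochondrial genes or without these and MALAT1 in the total, -0.68 with ribosome genes outside the naming rule added, and -1.15 once scaled to the median gene. At the 5% limit 336 WT barcodes remained, and the cause of the larger value was not tested. Members below the median of all genes numbered 82 of 82 under each alternative to the barcode limits, doublets, depth and totals, in FEV-positive barcodes, and with 1 UMI as the minimum, and 79 of 80 with a minimum of 50 CPM. For the mean share per cell, the added genes and the scaling this count was not computed.

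The log2 ratio of cycling over FEV-positive barcodes, 0.75 in WT and 0.78 in FKO as reported, was 0.76 in both libraries over all deposited barcodes, 0.73 in WT and 0.74 in FKO with doublets kept, 0.74 and 0.79 at a mitochondrial limit of 20%, and 0.64 and 0.63 at 5%. It was 0.77 and 0.81 with at least 3 FEV UMIs, 0.89 and 1.06 with cycling barcodes that held no FEV UMI (8 in WT, 37 in FKO), 0.76 and 0.91 as a mean share per cell, and 0.69 and 0.75 without mitochondrial genes and MALAT1. In WT it was 0.73 without mitochondrial genes. In FKO it was 0.73 with at least 5 cycling genes and 0.90 after thinning. No paired analysis was possible because each genotype has 1 library, and none could be left out. With 64 and 103 cycling barcodes, differences of low genes between classes are limited by counting.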
